A study of Oryctolagus cuniculus with 6 samples.

Results

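The genes examined were the receptors of histamine (HRH1, HRH2, HRH3 and HRH4), the enzymes that make and methylate histamine (HDC and HNMT) and genes by which mast cells are recognised (FCER1A, MS4A2, CPA3 and KIT), in the conjunctiva of rabbits with dry eye disease (DED) and of naive rabbits. A gene was measured where the annotation of the array gave a probe set its symbol and no other. This held for 8 of the 10 genes, out of 15587 symbols measured in all, and HRH3 and CPA3 were not analysed here. The rule takes the probe set with the highest mean over the 6 arrays where a gene has several, but each of the 8 genes had 1, so no measured value decided which probe set stood for a gene. The genes were chosen from pathway knowledge but also on the measured difference between DED and naive arrays, since earlier results of the same arrays, with the high value of HRH4 in DED among them, were known. Their differences between DED and naive conjunctiva are therefore given as a description: the adjusted p-values come from the fit to all probe sets and do not serve as independent evidence for this choice of genes.

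DED was induced in adult male Dutch Belted rabbits by injecting concanavalin A (ConA), a plant lectin that stimulates T cells, into the lacrimal glands around the orbit on days 1, 8 and 14, and conjunctiva was taken on day 18. Naive rabbits of the same breed and sex had no disease model, and the nictitating membranes of the rabbits had been removed beforehand. Each group comprised 3 arrays, and each array was hybridized with pooled RNA, from 3 animals (6 eyes) by the sample records and from fewer by the methods of the study. The tissue was full-thickness and included Tenon's capsule, so that RNA of epithelium, stroma, vessels and resident or infiltrating leukocytes entered each value. Values are log2 intensities normalized between arrays. They have no zero, a probe set of 1 gene cannot be set against that of another, and no probe set comes with a call of presence or absence.

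Histamine is made from histidine by HDC, stored in the granules of mast cells and basophils, and released when an antigen crosslinks IgE held by the high-affinity IgE receptor, whose alpha chain is FCER1A and whose beta chain is MS4A2. The conjunctiva is rich in mast cells, and histamine acting there on the receptor encoded by HRH1 is known for the itch, redness and swelling of ocular allergy. HRH4, by contrast, is known in human and mouse mainly from leukocytes such as eosinophils, mast cells, dendritic cells and T cells, in which it serves chemotaxis.

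Genes that define conjunctiva were checked on every array, and 3 of the 4 measured differed between the groups in limma (adjusted p under 0.05), where 7.10% of all probe sets did. KRT4, a keratin of non-keratinized stratified epithelium, lay at 11.22 to 11.38 in DED and 10.84 to 10.94 in naive conjunctiva, MUC5AC, the mucin of goblet cells, at 9.85 to 9.91 in DED and 10.09 to 10.13 in naive, and PAX6, a transcription factor of ocular surface epithelium, at 10.64 to 10.68 in DED and 10.76 to 10.84 in naive. COL1A1, a collagen of the stroma, lay at 11.69 to 11.71 in DED and 11.36 to 11.45 in naive. The log2 differences were 0.43 for KRT4 (adjusted p = 0.0145), 0.29 for COL1A1 (adjusted p = 0.0272), -0.24 for MUC5AC (adjusted p = 0.0477) and -0.15 for PAX6 (adjusted p = 0.188). The differences went in both directions among the epithelial markers. The part of tissue composition in the values of the genes under study was not tested. The median of each array lay between 6.18 and 6.2. Pearson's r between a DED and a naive array was 0.9883 to 0.9902, and r within a group 0.9938 to 0.9947, as a description over the probe sets of each pair.

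HRH4, FCER1A and HNMT were higher in DED, and HRH1, HRH2, HDC, MS4A2 and KIT did not pass an adjusted p under 0.05. In the fit with limma to all 23364 probe sets, 3 of the 8 genes measured passed this threshold, 3 of them upward and 0 downward, where 7.10% of all probe sets passed, 4.41% upward and 2.69% downward. No filter on low values was applied before the fit. The groups did not overlap in 4 of the 8 genes (HRH4, FCER1A, HNMT and KIT), against 27.8% of all probe sets. For 3 arrays against 3, the smallest p of the exact permutation test is 0.1.

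**Figure D1:**
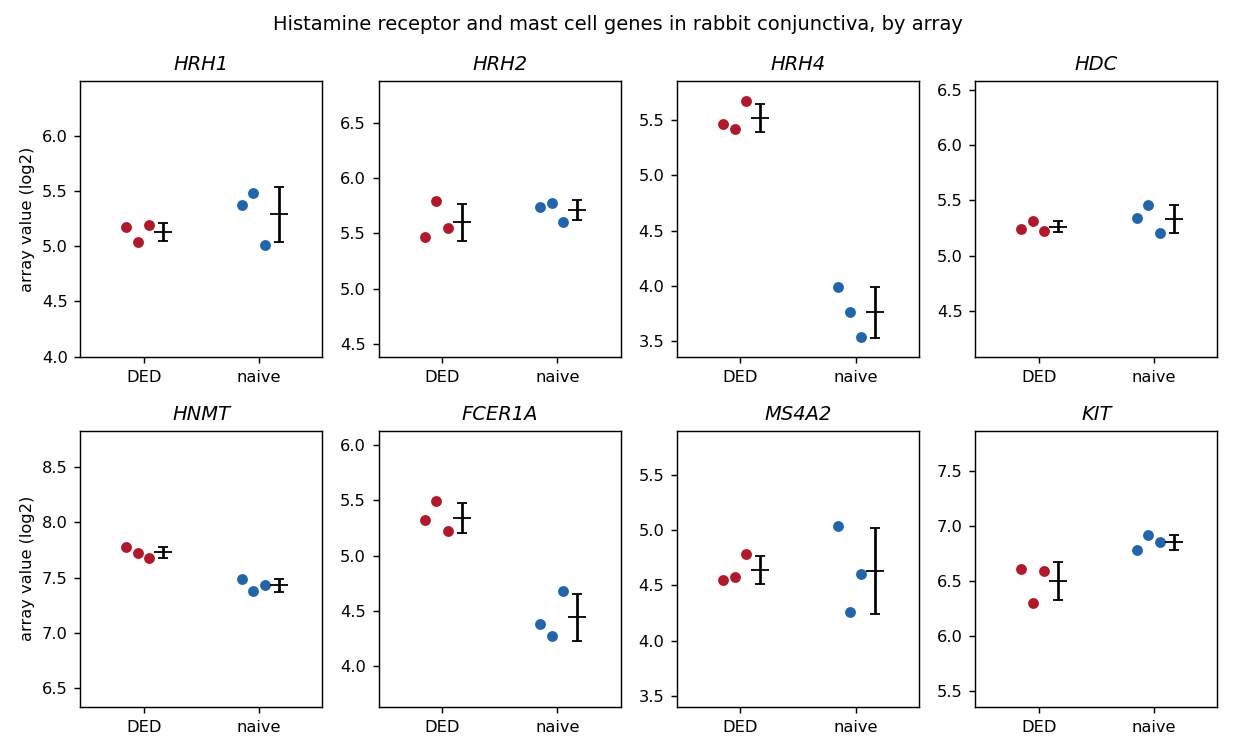
Log2 array value (vertical axis, the same span in each panel) of the 8 measured genes in DED (red, left) and naive (blue, right) conjunctiva. Points are the 3 arrays of pooled RNA in each group, and the bar beside them is the mean with the SD. The DED points of HRH4, FCER1A and HNMT lie above all naive points, those of KIT lie below them, and those of HRH1, HRH2, HDC and MS4A2 overlap with naive.

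Among the receptors, HRH4 alone passed the threshold. Its values were 5.47, 5.42 and 5.67 on the DED arrays, against 3.99, 3.76 and 3.54 on the naive arrays. The lowest DED array thus lay 1.43 above the highest naive array, a gap larger than the range within either group (0.25 in DED and 0.45 in naive). The means were 5.52 ± 0.13 in DED and 3.76 ± 0.23 in naive (SD, n = 3 arrays each), a log2 difference of 1.76 with a standard error of 0.13, or 3.38-fold. By the size of this difference HRH4 stood at place 13 from the top of the 15587 measured symbols. HRH4 was chosen with its high value in DED known, so gap and rank only describe it. Without any 1 of the 6 arrays the difference was 1.64 to 1.87.

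HRH1 encodes the receptor that couples histamine to phospholipase C in endothelium, smooth muscle and sensory nerve. It read 5.17, 5.04 and 5.19 in DED, against 5.37, 5.48 and 5.01 in naive conjunctiva. The third naive array lay below every DED array, so the groups overlapped. The log2 difference was -0.15 (95% confidence interval -0.46 to 0.15; limma, adjusted p = 0.547). HRH2, the receptor that raises cyclic AMP and is best known for gastric acid secretion, read 5.47, 5.79 and 5.55 in DED, against 5.74, 5.78 and 5.6 in naive. The second DED array was the highest of all 6. The difference was -0.10 (95% confidence interval -0.34 to 0.14; adjusted p = 0.613 from limma).

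The intervals of HRH1 and HRH2 ended at 0.15 and 0.14, and that of HRH4 ran from 1.45 to 2.06. These bounds hold for the array values only. Probe sets of different genes cannot be set against each other, and HRH4 was chosen with its high value known. Whether the transcripts of HRH1 and HRH2 changed less than that of HRH4 was not tested. Within each array, HRH4 minus HRH1 was 0.3, 0.38 and 0.48 in DED, against -1.38, -1.72 and -1.47 in naive. This subtraction changed by 1.91 (standard error 0.11) between the groups. HRH4 minus HRH2 changed by 1.86 (standard error 0.18), at 0, -0.37 and 0.12 in DED against -1.75, -2.02 and -2.06 in naive. Both subtractions restate the difference of HRH4, since HRH1 and HRH2 moved little, and they were not tested.

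Of the enzymes of histamine, HNMT was slightly higher in DED and HDC did not pass the threshold. HDC, the only enzyme that forms histamine, read 5.24, 5.31 and 5.22 in DED, against 5.34, 5.46 and 5.2 in naive conjunctiva. The groups overlapped, and the log2 difference of -0.08 had a 95% confidence interval of -0.27 to 0.12 (limma, adjusted p = 0.645). HNMT, which inactivates histamine inside cells by methylation, read 7.78, 7.72 and 7.68 in DED, against 7.49, 7.38 and 7.43 in naive. All DED arrays lay above all naive arrays, by a gap of 0.19 where each group ranged over 0.1 to 0.11. The difference was 0.29 (standard error 0.06), or 1.23-fold, with adjusted p = 0.039 from limma. This call was lost without any 1 of the 6 arrays (adjusted p = 0.0742 to 0.124), although the difference stayed at 0.27 to 0.32.

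Of the wider list of genes that make, store, carry and clear histamine, 9 of 10 were measured, and HNMT was the 1 that passed, where 7.10% of all probe sets passed. The other 8 had log2 differences of -0.13 to 0.15, and the median of the list was 0.06, against -0.01 over all probe sets. AOC1, the secreted diamine oxidase that degrades histamine outside cells, had a difference of -0.13 (adjusted p = 0.651). SLC18A2, the vesicular transporter that loads histamine into granules, had a difference of 0.01 (adjusted p = 0.957), and SLC22A3, a carrier that takes histamine up from outside, had a difference of 0 (adjusted p = 1). These p-values are from limma over all probe sets.

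**Figure D2:**
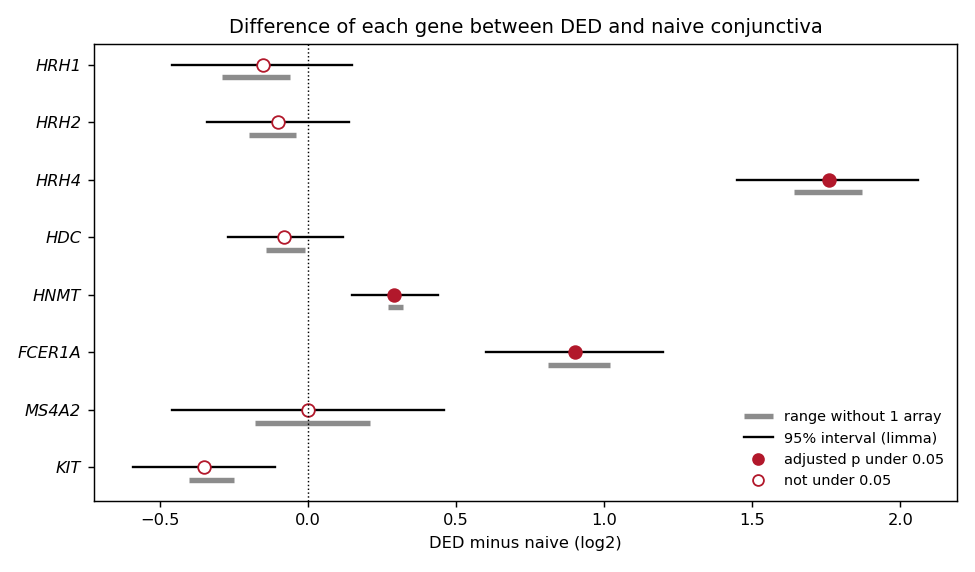
DED minus naive (horizontal axis, log2) of the 8 measured genes. Circles are the fitted differences, filled where the adjusted p was under 0.05, black lines are 95% confidence intervals from limma, and grey bars are the range when each of the 6 arrays was left out in turn. HRH4 (1.76), FCER1A (0.90) and HNMT (0.29) lie to the right of 0 with filled circles, and KIT (-0.35) is the gene farthest to the left.

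Of the IgE receptor chains measured, FCER1A passed the threshold and MS4A2 did not. FCER1A, the chain that binds IgE, read 5.32, 5.49 and 5.22 in DED, against 4.38, 4.27 and 4.68 in naive conjunctiva. The lowest DED array lay 0.54 above the highest naive array. The means were 5.34 ± 0.14 in DED and 4.44 ± 0.21 in naive (SD, n = 3 arrays each), a log2 difference of 0.90 (standard error 0.12), or 1.87-fold, with adjusted p = 0.00906 from limma. FCER1A did not pass in a one-way analysis of variance after Benjamini-Hochberg adjustment (adjusted p = 0.0539). The methods of the study name this kind of test, but it was run here without the authors' software and may differ from theirs. MS4A2, the chain that amplifies the signal and is largely restricted to mast cells and basophils in human, read 4.55, 4.58 and 4.78 in DED, against 5.04, 4.26 and 4.6 in naive.

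The naive arrays of MS4A2 spanned 0.78 and enclosed all DED arrays. Its difference was 0.00 with a 95% confidence interval of -0.46 to 0.46 (limma, adjusted p = 0.995), so that changes smaller than these bounds could not be seen. Within each array, FCER1A minus MS4A2 was 0.77, 0.91 and 0.44 in DED, against -0.66, 0.01 and 0.08 in naive. It changed by 0.90 (standard error 0.27), which restates the difference of FCER1A, and was not tested. The gamma chain gene, FCER1G, was not analysed here. HRH4, FCER1A and MS4A2 all lay among the 30% of probe sets with the lowest mean over the 6 arrays.

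FCER1A is also expressed by dendritic cells in human. Apart from FCER1A, 7 of 11 listed dendritic cell markers were measured. In limma 0 passed the threshold, against 7.10% of all probe sets, with log2 differences of -0.13 (CCR7) to 0.15 (XCR1). Their mean log2 value per array was 5.64 to 5.79 in DED and 5.58 to 5.75 in naive. Of 10 listed markers of basophils and eosinophils, 4 were measured (EPX, IL5RA, IL3RA and PTGDR2), and 0 passed, with differences of -0.11 to 0.07 and a mean per array of 5.99 to 6.21 in DED and 6.08 to 6.12 in naive. The unadjusted p was above 0.05 for all of these markers as well. Some 95% confidence intervals were wide, as for ITGAX (-0.51 to 0.63) and CD1B (-0.41 to 0.52). In bulk tissue, a change in the number of cells of a type and a change in RNA per cell cannot be told apart. The part of dendritic cells, basophils and eosinophils in the value of FCER1A was not tested.

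KIT, the receptor of stem cell factor on which mast cells depend for survival, read 6.61, 6.3 and 6.59 in DED, against 6.78, 6.92 and 6.85 in naive conjunctiva. All DED arrays lay below all naive arrays, by a gap of 0.17 where the DED arrays themselves ranged over 0.31. The log2 difference was -0.35 (standard error 0.10), and with adjusted p = 0.0942 (limma) it did not pass the threshold. It passed with an intensity trend in the variance (adjusted p = 0.0304) and when the 30% dimmest probe sets were left out (adjusted p = 0.0442). These were 2 of 10 alternatives that kept all arrays. KIT passed in 0 of the 6 fits without an array (limma, adjusted p = 0.128 to 0.232). KITLG, which encodes stem cell factor itself, had a difference of 0.13 (adjusted p = 0.603).

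Melanocytes carry KIT too, and some genes of melanocytes were lower on the same arrays. Of the 10 listed melanocyte markers measured apart from KIT, 4 were lower in DED, 1 was higher and 5 did not pass. Among all probe sets, 2.69% were lower and 4.41% higher. PMEL, MITF, OCA2, MLANA and SLC45A2, which did not pass, had log2 differences of -0.18, -0.11, 0, 0.14 and 0.18. TYRP1, an enzyme of melanin synthesis, read 6.9, 6.76 and 7.14 in DED, against 8.44, 8.27 and 8.34 in naive (log2 difference -1.42, adjusted p = 0.00104 from limma). DCT, SLC24A5 and TYR had differences of -1.63, -0.80 and -0.59, and EDNRB, an endothelin receptor that other cells also carry, had a difference of 0.44, whose call held in 5 of the 6 fits without an array. The mean log2 value of these 10 markers per array was 5.9 to 5.98 in DED and 6.3 to 6.38 in naive. The share of melanocytes in the value of KIT was not tested.

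Other genes by which mast cells are recognised had calls in both directions or no call. Of 18 genes of mast cell identity and granules, 10 were measured, with 2 calls upward (FCER1A and ENPP3), 1 downward (PTGS1) and 7 genes without a call in limma. All probe sets together had 4.41% upward and 2.69% downward. The tryptases (TPSAB1, TPSB2 and TPSG1), chymase (CMA1), CPA3 and CTSG, the proteases that fill the granules, were not analysed here. ENPP3, a surface enzyme used to mark activated basophils and mast cells in human, had a log2 difference of 0.34 (adjusted p = 0.0203), and PTGS1, the constitutive cyclooxygenase, had a difference of -0.32 (adjusted p = 0.027). Both calls were lost without any 1 of the 6 arrays. GATA2, a transcription factor that mast cells require, had a difference of -0.13 (adjusted p = 0.538), and IL1RL1, the receptor of IL-33, had a difference of 0.00 (adjusted p = 0.996). HPGDS and CD63, also without a call, had upward differences of 0.44 (adjusted p = 0.139) and 0.21 (adjusted p = 0.0963). IL1RL1, HPGDS and RGS13 lay among the 30% of probe sets with the lowest mean. The 95% confidence interval of IL1RL1 was -0.51 to 0.50, so smaller changes of this gene could not be seen. Leaving out the genes under study, 7 of 14 were measured, and the list then had a median of 0.08, with a mean per array of 6.34 to 6.37 in DED and 6.19 to 6.34 in naive.

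Downstream of the IgE receptor, 3 of 12 measured genes of 16 listed were higher in DED, 0 were lower and 9 did not pass. Among all probe sets, 4.41% were higher and 2.69% lower. BTK, a kinase that activates phospholipase C gamma, read 6.17, 6.11 and 6.3 in DED, against 5.44, 5.41 and 5.47 in naive conjunctiva. The log2 difference was 0.75 (standard error 0.07, adjusted p = 0.00197 from limma). LCP2, the adaptor SLP-76, and SYK, the kinase that docks on the receptor, had differences of 0.63 (adjusted p = 0.00576) and 0.50 (adjusted p = 0.00447). These 3 calls held without any 1 array.

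LYN, the kinase that phosphorylates the receptor first, had a difference of -0.01 (adjusted p = 0.963), FYN a difference of 0.01 (adjusted p = 0.972) and LAT, a membrane adaptor, a difference of 0.06 (adjusted p = 0.767). BTK, LCP2 and SYK also act in B cells, T cells, platelets or myeloid cells. Of 10 measured markers of macrophages and monocytes 7 were higher and 0 lower, with a mean log2 value per array of 7.83 to 7.87 in DED and 7.21 to 7.27 in naive. CD14, ITGAM, MSR1 and CD68 had the largest log2 differences among them (1.13, 1.11, 0.93 and 0.91). Of 9 measured markers of neutrophils 6 were higher and 0 lower, at 6.6 to 6.71 in DED and 5.8 to 5.93 in naive, with S100A8, CXCR1, CXCR2 and FPR2 at differences of 1.89, 1.37, 1.2 and 0.95. Of 10 measured markers of T cells 3 were higher and 0 lower, at 5.86 to 5.93 in DED and 5.45 to 5.51 in naive, and CD3G, CD4 and ICOS had differences of 0.73, 0.71 and 0.71. Beside these counts of cell type markers, 4.41% of all probe sets were higher and 2.69% lower. Of the markers without a call, MPO, MMP8 and FPR1 of neutrophils had differences of 0.00, 0.03 and 0.17. MARCO, MRC1 and FCGR1A of macrophages and monocytes had differences of -0.14, 0.19 and 0.45. Those of T cells without a call lay between 0.00 (CD3E) and 0.44 (CD28). When each array was left out in turn, CD4 kept its call in 3 of 6 fits, and ICOS and FPR2 each in 2. Of the markers counted but not named, C1QA kept its call in 2 of 6 fits, and C1QB and CSF3R each in 1. The part of these cells in the values of HRH4, FCER1A, HNMT, BTK, LCP2 and SYK was not tested.

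**Figure D3:**
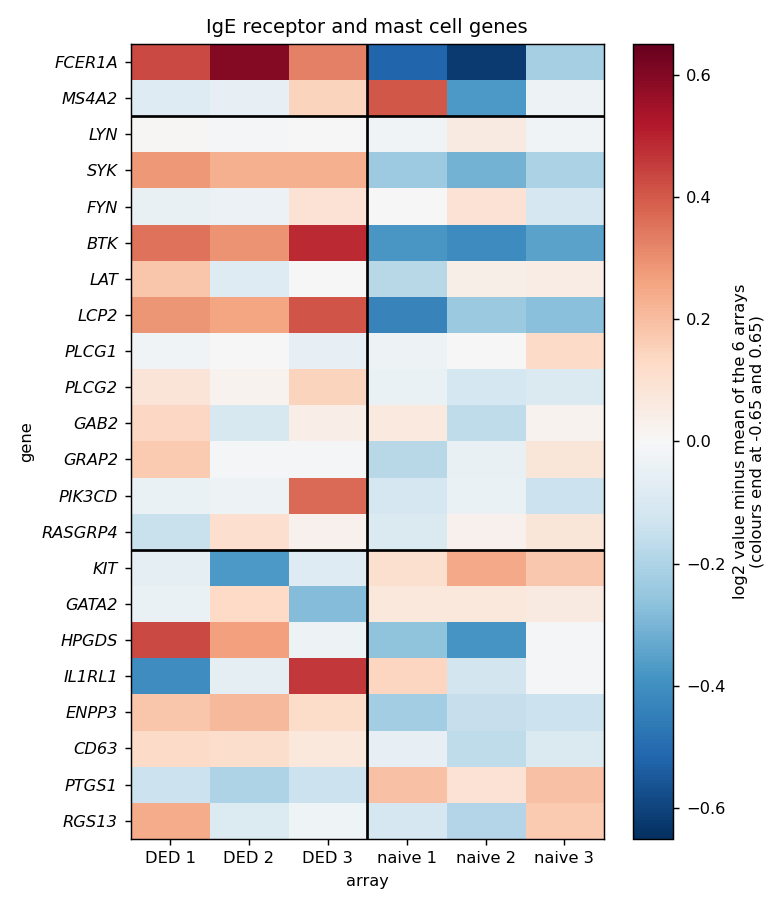
Log2 value minus the mean of the 6 arrays (colour) for the IgE receptor chains (top), the signalling genes behind the receptor (middle) and other mast cell genes (bottom), with the 3 DED arrays on the left and the 3 naive arrays on the right. FCER1A, SYK, BTK and LCP2 are red on every DED array and blue on every naive array, whereas MS4A2, LYN, FYN and LAT show no such division.

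Of 16 listed signals that recruit and sustain mast cells, 13 were measured, 1 was higher, 0 were lower and 12 did not pass in limma, a share of calls near the 7.10% of all probe sets. IL33, an alarmin of epithelium and endothelium that acts on mast cells, read 5.66, 5.65 and 5.88 in DED, against 5.26, 5.34 and 5.2 in naive. Its log2 difference of 0.46 (adjusted p = 0.0239) lost the call without any 1 of the 6 arrays. IL4, IL5, IL9 and IL13, cytokines of type 2 immunity, had differences of -0.17, -0.16, 0.05 and 0.00, and TSLP, another epithelial alarmin, had a difference of -0.02 (adjusted p = 0.968). IL4, IL5 and TSLP lay among the 30% of probe sets with the lowest mean. The 95% confidence interval of TSLP was -0.58 to 0.54, so smaller changes of TSLP could not be seen.

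The machinery by which granules fuse with the membrane had 1 call among 16 measured genes of 19 listed, again near the 7.10% of all probe sets. VAMP2, a vesicle SNARE protein, was lower, with a log2 difference of -0.35 (adjusted p = 0.0283 from limma). When each array was left out in turn, the call held only without naive replicate 1 (adjusted p = 0.0397). The other 15 genes had differences of -0.14 to 0.28 and the list median was -0.05.

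Of the genes of lipid mediators, which mast cells share with other leukocytes, 4 of 12 measured were higher and PTGS1 was lower. The shares of all probe sets were 4.41% higher and 2.69% lower. CYSLTR1, a receptor of cysteinyl leukotrienes, read 7.43, 7.37 and 7.49 in DED, against 6.4, 6.64 and 6.54 in naive conjunctiva, with a log2 difference of 0.90 (adjusted p = 0.00171 from limma). ALOX5AP, which presents arachidonic acid to 5-lipoxygenase, LTA4H, which makes leukotriene B4, and CYSLTR2 had differences of 0.50, 0.48 and 0.43 (adjusted p = 0.00482, 0.00437 and 0.0214). ALOX5, LTC4S and HPGDS did not pass. ALOX5, which encodes 5-lipoxygenase itself, had a difference of -0.20 (adjusted p = 0.362). LTC4S, the synthase of leukotriene C4, had a difference of -0.11 (adjusted p = 0.662), and HPGDS, the synthase of prostaglandin D2, had a difference of 0.44 (adjusted p = 0.139). CYSLTR2 lost its call without 4 of the 6 arrays in turn.

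Of the G proteins, phospholipases, arrestins and regulators through which histamine receptors signal, 11 of 16 were measured, with 2 higher, 2 lower and 7 without a call. For comparison, 4.41% of all probe sets were higher and 2.69% lower. RGS1 and RGS2, which shorten signals of G proteins, had log2 differences of 0.94 (adjusted p = 6.17e-04) and 0.89 (adjusted p = 0.00121). RGS1 read 5.22, 5.24 and 5.24 in DED, against 4.23, 4.38 and 4.26 in naive. PLCB4, a phospholipase C beta, and GNAI1, an inhibitory G protein subunit, had differences of -0.73 (adjusted p = 0.00171) and -0.47 (adjusted p = 0.0393). GNAI2 and GNAI3, the inhibitory subunits abundant in leukocytes, had differences of -0.03 and 0.02. GNAI1 kept its call in 1 of the 6 fits without an array. These proteins serve many receptors besides those of histamine.

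**Figure D4:**
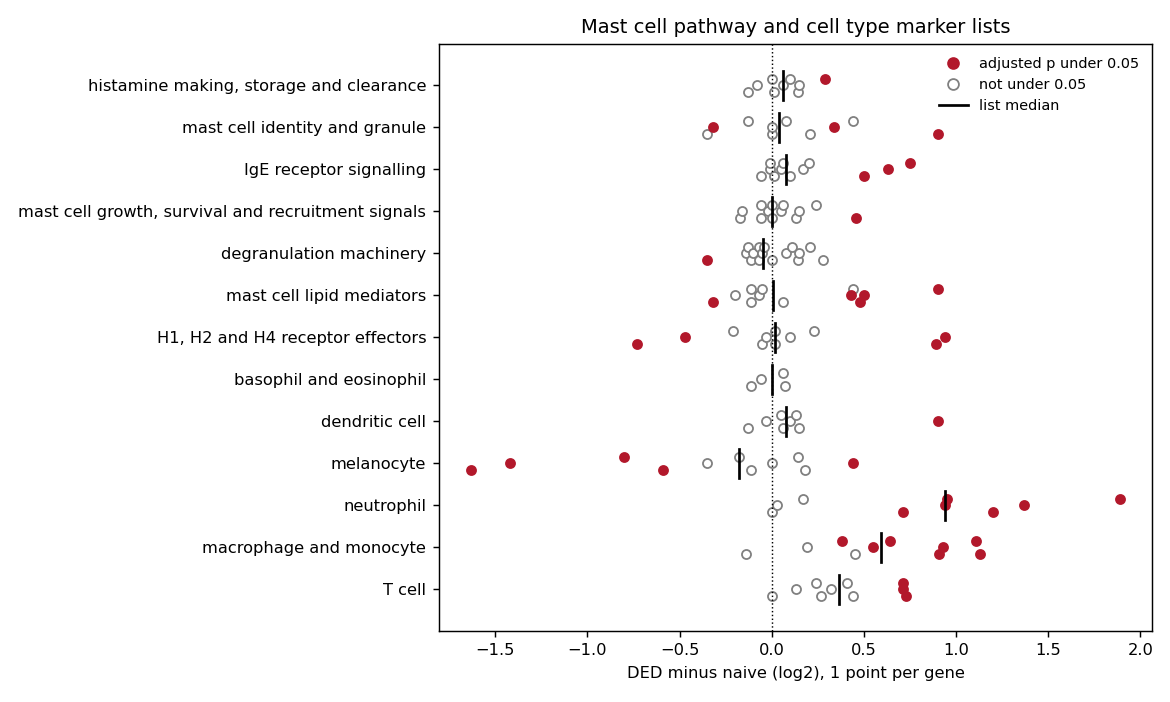
DED minus naive (horizontal axis, log2) of each measured gene in the pathway lists (upper rows) and the cell type marker lists (lower rows). Red points had an adjusted p under 0.05 in limma, open points did not, and the black bar is the median of the list. The medians of the 7 pathway lists drawn, which leave out the receptors themselves, lie between -0.05 and 0.08, that of neutrophil markers at 0.94 and that of macrophage and monocyte markers at 0.59.

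The genes whose profile over the 6 arrays came closest to that of HRH4 were ACOD1, LOC100008716, SAA3, MUC12 and RLA-DMB. Closeness was measured as the root mean square difference of the log2 values after centring each gene on its own mean, and lay at 0.13 to 0.14 for these 5. ACOD1 makes itaconate in macrophages and read 6.74, 6.69 and 6.64 in DED, against 5.28, 4.91 and 4.91 in naive conjunctiva. RLA-DMB, which helps load peptides onto class II molecules, read 8.96, 8.9 and 9.03 in DED, against 7.58, 7.44 and 7.34 in naive. With only 6 arrays in 2 groups, closeness mainly reflects the size of the difference between the groups, and no test was made. Pearson's r with HRH4 was 0.987 to 0.998 for these 5 genes. The 5 genes with the highest r were others, each at 0.998, a value that RLA-DMB also had to 3 decimals, so that the order by r rests on smaller digits.

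The nearest measured genes on either side in the gene order of the rabbit assembly mOryCun1.1, added after the values had been seen, had no call upward beside HRH4 or FCER1A. ZNF521 and IMPACT, the neighbours of HRH4, had log2 differences of -0.26 (adjusted p = 0.168 from limma) and -0.27 (adjusted p = 0.308). The neighbours of FCER1A, LOC100349334 and LOC100358172, had differences of 0.03 and -0.43 (adjusted p = 0.929 and 0.136). KIT lies between KDR and PDGFRA, related receptor kinases of endothelium and of fibroblasts. PDGFRA read 7.5, 7.42 and 7.55 in DED, against 7.78, 7.8 and 7.74 in naive (difference -0.28, adjusted p = 0.0421), and KDR had a difference of -0.11 (adjusted p = 0.511). MS4A6A and MS4A3, family members beside MS4A2, had differences of 0.19 (adjusted p = 0.132) and 0.21 (adjusted p = 0.309).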

How the data were processed

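RNA of pooled rabbit conjunctiva was hybridized by the authors to Affymetrix Rabbit Gene 1.0 ST arrays (6 µg of labelled RNA per the labels). The authors normalized the deposited log2 values by RMA, using the Transcriptome Analysis Console (no version stated in the sources used here). RMA compresses differences of dim probe sets. Of 23364 probe sets, 15795 had 1 symbol, 397 several and 7172 were not listed in the platform annotation. All 8 measured genes under study matched RefSeq by gene identifier. DED and naive arrays (n = 3 each) were compared with limma 3.58.1 in R 4.3.3 (lmFit, eBayes), with p-values of all probe sets adjusted by Benjamini-Hochberg and called under 0.05. The fit was tested on simulated data.

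The genes and lists were chosen with earlier results of these data known. The text names all measured genes of the set, and per list up to 4 genes past the threshold with the largest differences, or the 2 largest where none passed, plus the 5 nearest to HRH4. Other list genes, the tissue markers, the neighbours and the within-array subtractions were chosen after values had been seen. Nothing shows whether pools of a group came from separate experiments, so p-values measure the spread between these pools. Precision is limited by the number of arrays, with a median standard error of 0.09. Alternatives were an intensity trend, robust eBayes, analysis of variance, a filter on dim probe sets, renormalization, median centring, array weights, a replicate block, leaving out each array, only probe sets with 1 symbol, and means over probe sets.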

Additional observations from a re-analysis of the deposited data

How the results depend on the processing

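Of the 8 genes under study, HRH4, HNMT and FCER1A passed the threshold (3 in all, 3 higher and 0 lower in DED), and 1659 probe sets and 39 listed genes passed in all. With an intensity trend, 3029 probe sets passed and 1 of the 8 genes (KIT) was lower. Without the 30% dimmest probe sets, which hold HRH4, FCER1A and MS4A2, 1 was higher (HNMT) and 1 lower (KIT). Leaving out each array in turn gave 822 to 1028 probe sets, 25 to 32 listed genes and each time 2 of the 8 genes, HRH4 and FCER1A. MS4A2, at a log2 difference of 0.00, ranged from -0.18 to 0.21 and was below 0 without naive replicate 2 (-0.18), naive replicate 3 (-0.01) or DED replicate 3 (-0.07); the cause was not tested. Analysis of variance kept 2 genes (HRH4 and HNMT). Under Pearson's r, 0 of the 5 genes nearest to HRH4 were shared, with r equal to 3 decimals between RLA-DMB and the 5 others.

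Arrays with the same replicate number did not deviate together over all probe sets (r = -0.015, 0.024 and -0.057). A batch shared by arrays of the same number that touched only some genes could not be seen this way. Nothing in the labels says whether the numbers mark pairs. With the replicate block, 1 of the 8 genes passed, 1 of them higher (HRH4), with 689 probe sets and 25 listed genes. Adjusted p was then 0.107 for HNMT and 0.0617 for FCER1A. Of 36 other listed genes that passed, 23 passed without each array in turn and 13 lost the call at least once. Dim probe sets, HRH4, FCER1A and MS4A2 among them, are limited by their signal over background, which was not measured here.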
